A study of Mus musculus with 15 samples.

Results

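GABA-A receptors are the chloride channels through which the transmitter GABA produces fast inhibition in the cortex, and the genes described here encode part of their subunits. The subunit genes were taken as a fixed list of 7 names (Gabra2, Gabra3, Gabra4, Gabra5, Gabrb1, Gabrb2 and Gabrd), and every listed transcript that GENCODE M21 assigns to one of them was kept. That gave 8 transcripts of the 7 genes, among 10370 listed transcripts of 7740 annotated genes. No measured difference between the groups was used to choose them, although earlier results of these data were known when they were chosen.

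The libraries were made from total RNA of dissected cortex of male C57BL/6 mice (C57Bl/6J in the study's methods), for which the labels give an age of 12 weeks. The Sham group holds 7 libraries and the high-frequency head impact (HF-HI) group holds 8, and both were collected 1 month after the procedure. HF-HI mice received repeated closed-head impacts on successive days under isoflurane, and Sham mice were handled and anesthetized in the same way without impacts, so anesthesia is shared by both groups. No transgene, deletion or drug treatment was part of either group. The labels number the libraries but do not state whether each one is a single mouse, so p-values measure the spread between these libraries. The comparison asks whether cortical RNA levels differ between HF-HI and Sham 1 month later.

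Each GABA-A receptor is a ring of subunits around a chloride pore. The common synaptic receptors combine alpha, beta and gamma subunits, and the alpha subunit sets much of the response to GABA and to benzodiazepines. Receptors with alpha4 and delta, or with alpha5, are best known for sitting outside the synapse, where they carry tonic inhibition. Every subunit belongs to the Cys-loop family, named for a pair of cysteines in the extracellular part that are joined by a disulfide bond.

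The coding sequence of that loop is shown because it is the shared signature of the family and lets the members be compared base by base. A window of 45 bases that opens and closes with a cysteine codon was found once in the coding sequence of each of the 6 coding member transcripts. It was read from the GENCODE M21 transcripts (GRCm38), and the capitals mark the cysteine codons. The line for Gabra2 comes from its annotated coding transcript, Gabra2-203, which is not among the listed transcripts.
Gabra2 (chr5:71012720-71012764, minus strand, exon 6): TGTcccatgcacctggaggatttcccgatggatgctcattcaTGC
Gabra3 (chrX:72476245-72476289, minus strand, exon 6): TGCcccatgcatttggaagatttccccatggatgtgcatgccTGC
Gabra4 (chr5:71640847-71640891, minus strand, exon 5): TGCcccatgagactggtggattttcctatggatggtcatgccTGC
Gabra5 (chr7:57452964-57453008, minus strand, exon 6): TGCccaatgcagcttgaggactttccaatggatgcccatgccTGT
Gabrb1 (chr5:72029846-72029890, plus strand, exon 5): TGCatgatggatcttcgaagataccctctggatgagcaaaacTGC
Gabrb2 (chr11:42529431-42529475, plus strand, exon 6): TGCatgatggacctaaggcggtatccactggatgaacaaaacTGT
Gabrd (chr4:155387877-155387921, minus strand, exon 5): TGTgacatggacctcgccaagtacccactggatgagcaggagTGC

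Among the alpha sequences 75.6% to 80% of the 45 bases were identical between any pair. Gabrb1 and Gabrb2 shared 77.8%. An alpha and a beta sequence shared 48.9% to 60%. The Gabrd loop shared 66.7% with Gabrb1 and 64.4% with Gabrb2, against 55.6% to 62.2% with the alpha loops. Over whole member transcripts, the longest run of identical bases between different genes was 24, between Gabra3 and Gabra5. No run between members was therefore as long as a sequencing read.

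By the GENCODE M21 annotation, Gabra2 was the member whose listed RNA was not a coding one. The annotation release behind the deposited counts is not given in the sources used here, so this label rests on GENCODE M21. Of 6 annotated Gabra2 transcripts a single one is coding and it was not listed, while the listed Gabra2-201 is annotated as a target of nonsense-mediated decay. Gabra2-201 lacks a 68-base coding exon of Gabra2-203 (exon 4, chr5:71034730-71034797), and both use the same start codon. Their reading frames are identical for 187 bases and then part. The end of the Gabra2-201 frame is printed because it shows the early stop, in capitals, beside the coding frame from the same place. The first 30 bases of both lines are the shared part.
Gabra2-201: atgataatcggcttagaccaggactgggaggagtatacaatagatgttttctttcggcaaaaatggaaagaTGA
Gabra2-203: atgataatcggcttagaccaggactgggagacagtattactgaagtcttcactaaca
The frame of Gabra2-201 closes after 231 bases, in exon 3 of 9 and 938 bases before the last exon junction, while the frame of Gabra2-203 runs for 1356 bases. Of the 2245 bases of Gabra2-201, 2045 (91.1%) also belong to Gabra2-203, the Cys-loop exon among them. A value for Gabra2-201 may therefore hold reads of coding Gabra2 RNA, and the deposited values do not tell these apart.

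The deposited values cover a sum of 5798810 to 10582858 reads over the listed transcripts in Sham libraries and 3496103 to 8666307 in HF-HI libraries. Size factors, recovered from the steps between the values, were 0.818 to 1.47 in Sham and 0.501 to 1.22 in HF-HI, a mean log2 difference of -0.55 (exact two-sided permutation test, p = 0.0280). Depth therefore moved with group, and its part in the results was not tested beyond the fits given beside them. HF-HI replicate 2 stood apart on the first principal component (12.6, against -3.35 to 0.721 in the other libraries). The RNA is bulk cortex, in which fewer cells of a type and less RNA per cell cannot be told apart. All 12 marker genes of cortical glutamatergic neurons were listed, with Camk2a the most abundant. So were 9 of 10 striatum marker genes, so being listed does not check the tissue label.

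None of the 8 subunit transcripts passed the test between HF-HI and Sham, at the adjusted threshold or at an unadjusted p under 0.05. Across all 10370 transcripts, 916 (8.83%) were at an unadjusted p under 0.05 in limma, 512 higher and 404 lower in HF-HI. None passed an adjusted p of 0.1, and the lowest adjusted p was 0.206. With reads summed per gene and limma's voom, 730 of 7740 genes (9.43%) were at an unadjusted p under 0.05, none of them among the 7 subunit genes. By that test 1 gene passed the adjusted threshold, Txndc5, which is not a subunit gene and is named after its value was seen. The median log2 difference was -0.02 over the 8 subunit transcripts and -0.01 over all transcripts. Values below are normalized counts (reads divided by the size factor), with the deposited variance-stabilized (VSD) scale used for the p-values and log2(normalized count + 1) for the intervals.

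**Figure D1:**
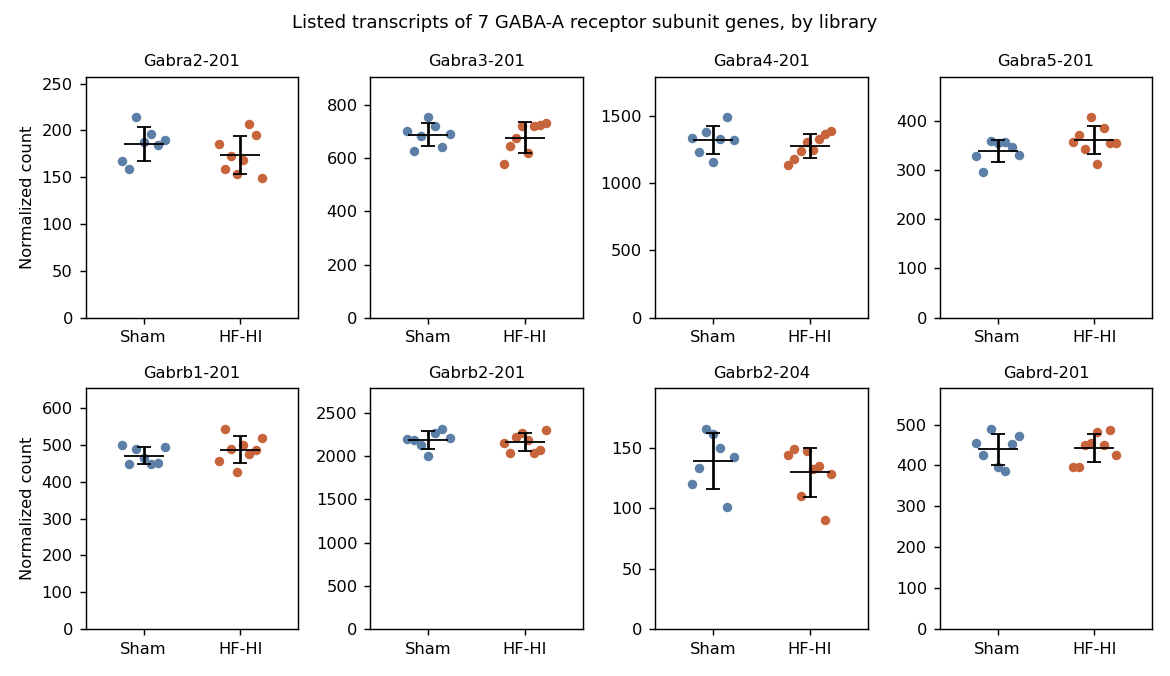
Normalized count (vertical axis, from 0) of each of the 8 listed subunit transcripts in the 7 Sham and 8 HF-HI libraries. Points are libraries, horizontal marks are means and bars are SD; the 2 groups overlap in every panel.

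Gabra2 encodes alpha2, a synaptic alpha subunit known for its place on the axon initial segment of pyramidal neurons. Gabra2-201 (ENSMUST00000000572, chr5:70961061-71094640, minus strand, 9 exons) ran from 159 to 214 normalized counts in Sham, with a median of 187. In HF-HI it ran from 149 to 207, with a median of 171. HF-HI replicate 8 was lowest and Sham replicate 3 highest, and the Sham median exceeded 6 of 8 HF-HI libraries. The means were 185 ± 18.3 (SD, n = 7) and 174 ± 20.5 (SD, n = 8), with a VSD difference of -0.02 (limma, adjusted p = 0.784). The 95% interval of the log2 difference was -0.28 to 0.09, or -17.6% to 6.16% of the Sham level.

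Gabra3 encodes alpha3, a synaptic alpha subunit whose gene lies on the X chromosome. Gabra3-201 (ENSMUST00000055966, chrX:72432681-72656186, minus strand, 10 exons) ran from 628 to 756 normalized counts in Sham (median 694). In HF-HI the range was 579 to 732 (median 699.6). The HF-HI libraries were evenly placed, 4 above and 4 below the Sham median, with HF-HI replicate 1 the lowest of all. The means were 690.1 ± 43.7 (SD, n = 7) and 678 ± 57.8 (SD, n = 8), with a VSD difference of -0.01 (limma, adjusted p = 0.923). The log2 difference had a 95% interval equal to -9.89% to 6.82%.

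Gabra4 encodes alpha4, which pairs with delta in extrasynaptic receptors of the forebrain. Gabra4-201 (ENSMUST00000031121, chr5:71569749-71658308, minus strand, 9 exons) ran from 1157 to 1489 normalized counts in Sham (median 1326). In HF-HI it ran from 1132 to 1387 (median 1276). The ranges overlapped over most of their length, and 5 of 8 HF-HI libraries were below the Sham median. The means were 1320 ± 106 (SD, n = 7) and 1274 ± 89.1 (SD, n = 8), with a VSD difference of -0.03 (limma, adjusted p = 0.822). Its 95% interval reached from -11.0% to 4.76%.

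Gabra5 encodes alpha5, best known from hippocampal pyramidal neurons and from cortical layer V, in receptors that are largely extrasynaptic. Gabra5-201 (ENSMUST00000068456, chr7:57407672-57510009, minus strand, 10 exons) ran from 297 to 358 normalized counts in Sham (median 347). In HF-HI it ran from 311 to 407 (median 356). It had the smallest adjusted p of the 8 transcripts, and 6 of 8 HF-HI libraries were above the Sham median, yet the groups overlapped. The means were 339 ± 22.3 (SD, n = 7) and 360.5 ± 28.5 (SD, n = 8), with a VSD difference of 0.03 (limma, adjusted p = 0.702). The 95% interval ran from -2.53% to 15.6%. The highest value, 407, was in HF-HI replicate 4, which is also the library with the fewest reads. With the log2 size factor as a covariate the VSD difference was 0.0053, and over the 7 Sham and 5 HF-HI libraries with a size factor of at least 0.8 it was 0.013.

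The beta subunits form the GABA binding site together with an alpha subunit. Gabrb1 encodes beta1, and Gabrb1-201 (ENSMUST00000031122, chr5:71699932-72149037, plus strand, 9 exons) ran from 448 to 500.5 normalized counts in Sham (median 466). In HF-HI it ran from 425 to 545 (median 488). Both extremes were HF-HI libraries, replicate 4 at the bottom and replicate 2 at the top. The means were 471 ± 22.8 (SD, n = 7) and 487 ± 36.8 (SD, n = 8), with a VSD difference of 0.02 (limma, adjusted p = 0.831). The 95% interval ran from -4.24% to 11.2%. Without HF-HI replicate 2, the library that stood apart, the VSD difference was 0.0076.

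Gabrb2 encodes beta2, a beta subunit of many synaptic receptors of the adult brain. It was the most abundant member and the steadiest, with a coefficient of variation of 4.62% over the 15 libraries for its coding transcript. Gabrb2-201 (ENSMUST00000007797, chr11:42419757-42629028, plus strand, 10 exons) ran from 2002 to 2321 normalized counts in Sham (median 2195). In HF-HI it ran from 2034 to 2308 (median 2168). The HF-HI range lay wholly inside the Sham range. The means were 2189 ± 102 (SD, n = 7) and 2161 ± 104 (SD, n = 8), with a VSD difference of -0.01 (limma, adjusted p = 0.915). The 95% interval ran from -6.51% to 4.26%, the narrowest of the 8.

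A further Gabrb2 RNA, Gabrb2-204 (ENSMUST00000143626, chr11:42421310-42531622, plus strand, 5 exons), is annotated as a processed transcript without a coding frame. Its Sham libraries held 101 to 166 normalized counts (median 143) and its HF-HI libraries 90.7 to 149 (median 134). This was the least abundant member transcript, with 53 to 238 reads a library and a coefficient of variation of 15.9%. Counting alone would give a coefficient of variation of 8.85%. The means were 139 ± 23.0 (SD, n = 7) and 130 ± 20.3 (SD, n = 8), with a VSD difference of -0.02 (limma, adjusted p = 0.853). Its 95% interval, -23.3% to 13.3%, was the widest of the 8. Its share of the Gabrb2 counts was 6.02% ± 1.13 (SD, n = 7) in Sham and 5.67% ± 0.887 (SD, n = 8) in HF-HI. Since 581 of its 2709 bases (21.4%) also lie in Gabrb2-201, the division of reads between them is an estimate of the counting tool.

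Gabrd encodes delta, which takes the place of gamma in extrasynaptic receptors. Gabrd-201 (ENSMUST00000030925, chr4:155384980-155398112, minus strand, 9 exons) ran from 385 to 490.4 normalized counts in Sham (median 452). In HF-HI it ran from 396 to 486 (median 449.5). The HF-HI range again lay inside the Sham range. The means were 439 ± 38.5 (SD, n = 7) and 443 ± 34.0 (SD, n = 8), with a VSD difference of 0.0038 (limma, adjusted p = 0.975). Differences between -8.02% and 10.5% lay within the 95% interval. Its sign turned with the settings, as in the fit with the log2 size factor (VSD difference -0.0105).

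**Figure D2:**
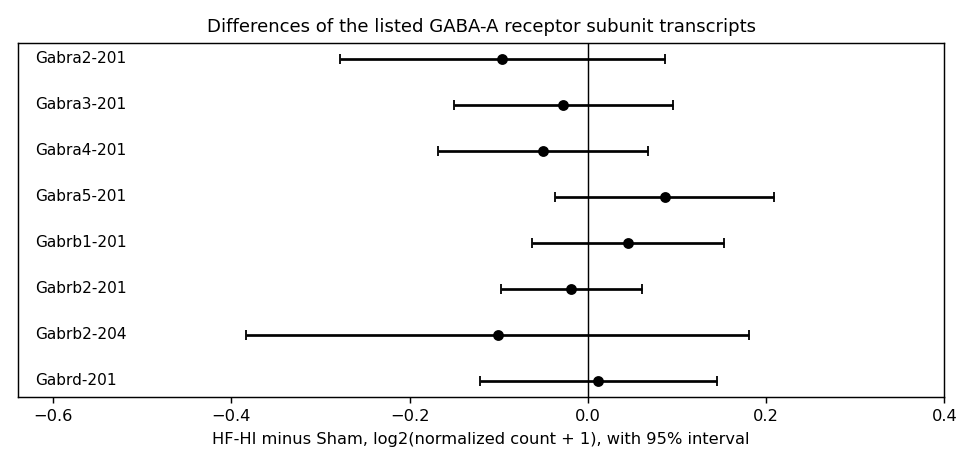
Difference HF-HI minus Sham in log2(normalized count + 1) with its 95% interval (horizontal axis) for the 8 subunit transcripts. All 8 intervals include 0, Gabrb2-201 has the narrowest and Gabrb2-204 the widest.

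Levels were next compared between the genes per kilobase of listed transcript, since longer transcripts collect more reads. Per kilobase, Gabrb2 came first with 594.7 ± 24.3 normalized counts (SD, n = 15), followed by Gabra4 with 315 ± 23.5 and Gabrd with 229.6 ± 18.1. Gabra3 had 187 ± 13.7, Gabra5 had 131 ± 10.2 and Gabra2 had 79.8 ± 8.78. The Gabra2 value is that of Gabra2-201 alone. The coding Gabra2 transcript was not listed, so its level and its place in this order are not given by these values. Gabrb1 was lowest, with 34.9 ± 2.26, so that the top of the order exceeded the bottom by 17.0-fold. The order was the same in all 15 libraries. Of the neighbours in it, Gabrd and Gabra3 had overlapping ranges over libraries, although Gabrd was above Gabra3 in 15 of 15, and the other neighbours did not overlap. The place of Gabrb1 depends on an annotated length of 13737 bases, against 1921 to 4108 for the other members, and the annotation release behind the deposited counts is not given in the sources used here.

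**Figure D3:**
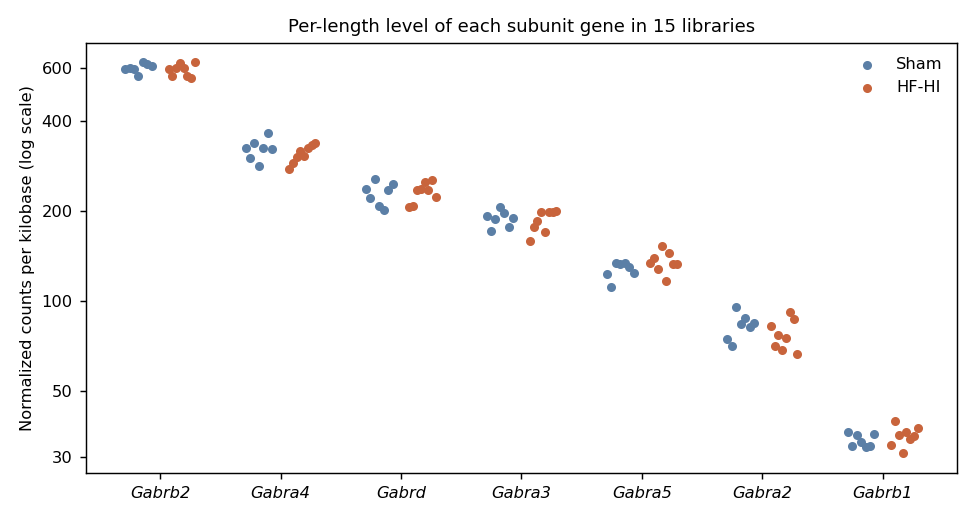
Normalized counts per kilobase (vertical axis, log scale) of each subunit gene in the 7 Sham (blue) and 8 HF-HI (orange) libraries, with genes ordered by mean level. The order from Gabrb2 to Gabrb1 is the same in every library, and the colours overlap for each gene. Gabra2 is shown by Gabra2-201 alone, which GENCODE M21 does not annotate as coding.

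As shares of the summed per-kilobase level of the 7 genes, the balance of both groups overlapped gene by gene. Gabrb2 held 37.9% ± 1.12 (SD, n = 7) in Sham and 37.8% ± 1.75 (SD, n = 8) in HF-HI. Gabra4 held 20.3% and 19.8%, Gabrd 14.4% and 14.7%, and Gabra3 11.9% and 11.8%. Gabra5 held 8.03% ± 0.479 in Sham and 8.64% ± 0.663 in HF-HI, with 7 of 8 HF-HI libraries above the Sham median and overlapping ranges. Gabra2, by Gabra2-201 alone, held 5.21% and 4.96%, and Gabrb1 2.17% and 2.27%. No test was run on these shares, which are bound to sum to the whole.

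**Figure D4:**
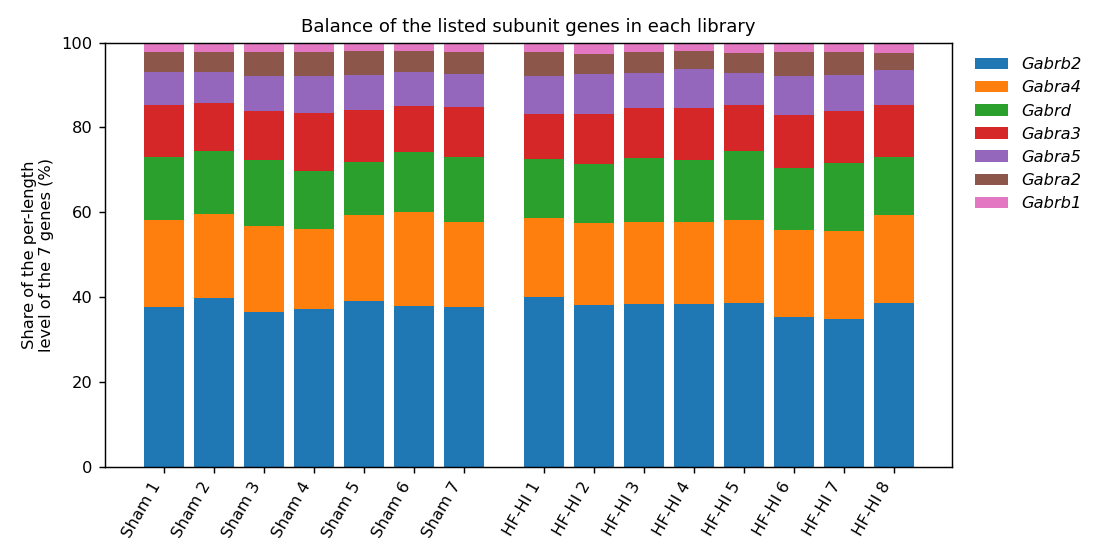
Share of the summed per-kilobase level of the 7 genes (vertical axis, percent) that each gene holds in each library, Sham on the left and HF-HI on the right. Gabrb2 is the largest part of each bar, from 34.8% to 40.0%, and Gabrb1 the smallest.

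Balance within pairs of related subunits was compared as the log2 ratio of per-kilobase levels, with an exact two-sided permutation test over the 6435 assignments of libraries to groups and Benjamini-Hochberg adjustment over the 3 ratios. The ratio of Gabra5 to Gabra2 compares an extrasynaptic with a synaptic alpha subunit. In Sham it ran from 0.49 to 0.72 (median 0.65), and in HF-HI from 0.62 to 1.15 (median 0.72). The highest HF-HI libraries were replicate 4 at 1.15, replicate 8 at 1.00 and replicate 2 at 0.98, and the other 5 lay between 0.62 and 0.73. The means were 0.62 ± 0.078 (SD, n = 7) and 0.81 ± 0.21 (SD, n = 8), a difference of 0.18 with an interval of 0.005 to 0.36 from inverting the test (exact permutation p = 0.0499, adjusted p = 0.150). The ratio thus failed the correction, and its denominator rests on Gabra2-201, which GENCODE M21 does not annotate as coding. Without HF-HI replicate 4, the shallowest library, the difference was 0.13 (exact permutation p = 0.0763), and without HF-HI replicate 2 it was 0.16 (exact permutation p = 0.0763). Over libraries with a size factor of at least 0.8 it was 0.12 (exact permutation p = 0.0808).

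The ratio of Gabrb1 to Gabrb2 compares both beta subunits, which stand at the bottom and the top of the per-kilobase order. Without division by length Gabrb1 is not lowest, since its mean of 479.5 normalized counts exceeds those of Gabrd (441), Gabra5 (351) and Gabra2 (179). It ran from -4.26 to -4.03 in Sham (median -4.07) and from -4.33 to -3.83 in HF-HI (median -4.04), so the Sham range lay inside that of HF-HI. The means were -4.13 ± 0.096 (SD, n = 7) and -4.06 ± 0.14 (SD, n = 8), a difference of 0.07 with an interval of -0.065 to 0.20 (exact permutation p = 0.288, adjusted p = 0.288). It was 0.04 without HF-HI replicate 2 and 0.11 without HF-HI replicate 4 (exact permutation p = 0.0524). The ratio of Gabrd to Gabra4 compares the partners of the extrasynaptic receptor. It ran from -0.69 to -0.39 in Sham (median -0.45) and from -0.60 to -0.28 in HF-HI (median -0.42). Delta was below alpha4 in every library. The means were -0.49 ± 0.12 (SD, n = 7) and -0.43 ± 0.094 (SD, n = 8), a difference of 0.06 with an interval of -0.055 to 0.18 (exact permutation p = 0.263, adjusted p = 0.288). With a library left out the difference ran from 0.03 (without Sham replicate 5) to 0.09 (without HF-HI replicate 8, exact permutation p = 0.127). It was 0.04 without Sham replicate 6 and 0.04 without HF-HI replicate 5.

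**Figure D5:**
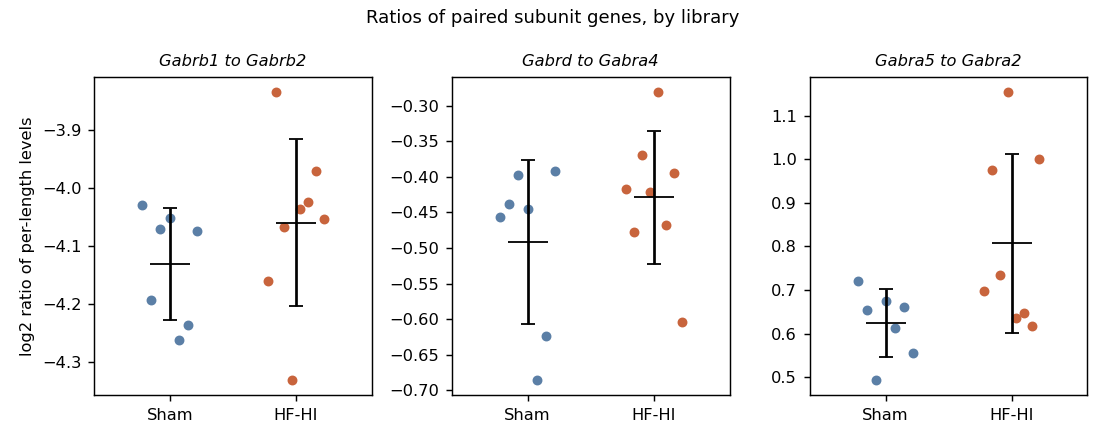
Log2 ratio of per-kilobase levels (vertical axis, a separate scale in each panel) for 3 pairs of subunit genes in the 7 Sham and 8 HF-HI libraries, with mean and SD. In the Gabra5 to Gabra2 panel 3 HF-HI libraries sit at 0.98 to 1.15 and the highest Sham library is at 0.72.

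Of the 12 other GABA-A subunit genes looked up, 5 were listed, with 7 transcripts. Of these 7, 0 were at an unadjusted p under 0.05, against 8.83% of all transcripts. Gabrg3, a gamma subunit gene, had 49.9 ± 4.06 normalized counts per kilobase (SD, n = 15) and Gabrg1, another, had 45.0 ± 5.73. Both were above Gabrb1 and below Gabra2-201.

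Most GABA-A subunit genes lie in groups on the chromosomes. Gabra2, Gabra4 and Gabrb1 are neighbours on chromosome 5, and Gabrb2 lies in a cluster on chromosome 11. Gabra5 belongs to the cluster on chromosome 7 with Gabrg3. Gabrd, on chromosome 4, and Gabra3, on the X chromosome, lie apart from the other members. The 3 members on chromosome 5 differed in listed level, with 315 normalized counts per kilobase for Gabra4, 79.8 for Gabra2-201 and 34.9 for Gabrb1.

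The rest of the GABA pathway was read from 6 lists that hold 77 listed transcripts, of which 6 (7.79%) were at an unadjusted p under 0.05, against 8.83% of all transcripts. None of these passed the adjusted threshold. Of the 8 transcripts for GABA synthesis, vesicle loading and clearance, 0 were higher and 1 was lower at that level. It was Abat-201, of GABA transaminase, which breaks GABA down, with 1610 ± 67.2 normalized counts (SD, n = 7) in Sham and 1515 ± 79.0 (SD, n = 8) in HF-HI (limma, adjusted p = 0.525).

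In the list of the inhibitory postsynapse, 2 of 20 transcripts were higher at an unadjusted p under 0.05 and 0 were lower. Over all transcripts the share at that level was 8.83% in either direction, and the list was not tested against it. The 2 higher transcripts both belong to Iqsec3, an exchange factor that binds gephyrin. Iqsec3-203 had 117 ± 29.0 normalized counts (SD, n = 7) in Sham and 193 ± 59.0 (SD, n = 8) in HF-HI, with 8 of 8 HF-HI libraries above the Sham median (limma, adjusted p = 0.351). Iqsec3-202, annotated as a target of nonsense-mediated decay, had 295 ± 58.0 and 375 ± 72.3 (limma, adjusted p = 0.514). The other coding transcript, Iqsec3-201, had 429 ± 204 in Sham and 299.8 ± 48.4 in HF-HI, with 8 of 8 HF-HI libraries below the Sham median (limma, adjusted p = 0.650), and Iqsec3-204 had 488 ± 208 and 548 ± 45.6. All 4 overlap in the genome, so the division of reads among them is an estimate. Summed over the 4 transcripts, Iqsec3 had 1330 ± 96.5 and 1416 ± 112 (limma's voom, adjusted p = 0.683).

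Against 8.83% of all transcripts in either direction, 1 of 20 transcripts for receptor trafficking was higher and 0 were lower. It was Kif21b-201, of a kinesin motor, with 212 ± 50.8 normalized counts (SD, n = 7) in Sham and 289 ± 73.8 (SD, n = 8) in HF-HI (limma, adjusted p = 0.497). Kif21b-204, which overlaps it, had 489 ± 91.2 and 448 ± 85.9, so reads may be divided between them, and the sum of both was 701 ± 83.3 and 737 ± 51.2 (limma's voom, adjusted p = 0.798). Kif5a, another kinesin and the most abundant gene there, had 16033 ± 541 and 15965 ± 546. The 7 GABA-B receptor transcripts had 0 at that level, and Gabbr1, an obligate subunit of that receptor, had 5247 ± 219 and 5414 ± 197.

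Of 15 transcripts for chloride transport, which sets the driving force of the receptor current, 1 was higher and 1 lower. The share of all transcripts at that level, in either direction, was 8.83%. Wnk2-206 had 164 ± 30.6 normalized counts (SD, n = 7) in Sham and 203 ± 35.6 (SD, n = 8) in HF-HI (limma, adjusted p = 0.533). Wnk2-207, which overlaps it, had 202 ± 38.8 and 143 ± 84.1, with 7 of 8 HF-HI libraries below the Sham median (limma, adjusted p = 0.577). Summed over its 3 listed transcripts, Wnk2 had 555 ± 90.5 and 531 ± 127 (limma's voom, adjusted p = 0.896). Wnk3-203, annotated as a processed transcript, had 395 ± 43.0 and 339 ± 25.2, with 8 of 8 HF-HI libraries below the Sham median (limma, adjusted p = 0.399). With Wnk3-206 added, Wnk3 had 587 ± 41.2 and 507 ± 50.9 (limma's voom, adjusted p = 0.269). Both genes encode kinases that act on chloride cotransporters. Slc12a5, the chloride extruder KCC2, had 4725 ± 168 and 4853 ± 219.

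Cell type and region markers were counted in the same way, as transcripts higher and lower at an unadjusted p under 0.05. Over all 10370 transcripts the share at that level, in either direction, was 8.83%. The lists are small, and no list was tested against that share. GABAergic interneuron markers had 1 higher and 0 lower of 17, with a summed level of 13808 to 14716 normalized counts in Sham and 13523 to 15018 in HF-HI. Glutamatergic neuron markers had 3 higher and 0 lower of 15, with sums of 19138 to 20949 and 20062 to 22059. Striatum markers had 0 higher and 3 lower of 16, with sums of 9376 to 13812 and 6866 to 13477. With the mean of the striatum markers as a covariate, the VSD difference of Gabra4-201 was -0.0130 (-0.0262 without it) and that of Gabrd-201 was 0.0138 (0.0038 without it). Astrocyte markers had 0 higher and 1 lower of 16, and microglia markers 0 higher and 1 lower of 7. Oligodendrocyte (18 transcripts), endothelium (6), hippocampus (3), thalamus (1) and choroid plexus (6) markers had 0 in both directions. The choroid plexus sum varied most, with 2069 to 11407 normalized counts over Sham libraries and 2087 to 14049 over HF-HI libraries. The part of these cells and regions in the subunit levels was not tested further.

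For each subunit gene the 2 other genes with the most similar pattern over the 15 libraries were found, from log2 summed normalized counts with the group means removed. These correlations describe libraries that share depth and dissection, and no test was run. They are the highest of a search among the 7740 annotated genes with the members left out, so high values were selected for. Gabra4 was nearest to Ppp3ca, the calcineurin catalytic subunit (Pearson r = 0.94, Spearman rho = 0.97), and to Rcan2, a regulator of calcineurin (r = 0.85, rho = 0.86). Gabra3 was nearest to Map1b, a microtubule-associated protein gene (r = 0.91, rho = 0.93), and to Etl4 (r = 0.88, rho = 0.91). Gabrb2 was nearest to Tm9sf3 (r = 0.86, rho = 0.86) and Utp3 (r = 0.86, rho = 0.89). Gabrb1 was nearest to Tsr1 (r = 0.86, rho = 0.85) and to Pcx, the pyruvate carboxylase gene (r = 0.84, rho = 0.81). Gabra2 was nearest to Ddost (r = 0.85, rho = 0.81) and Rnf166 (r = 0.84, rho = 0.81). Gabrd was nearest to H2afy, a histone variant gene (r = 0.83, rho = 0.84), and Ndrg4 (r = 0.81, rho = 0.79). Gabra5 was nearest to Elp5 (r = 0.83, rho = 0.70) and Siah2 (r = 0.80, rho = 0.54), where the rank correlations were lower. No member was among the nearest genes of another, since members were left out of the search.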

How the data were processed

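Total RNA of mouse cortex was sequenced in 15 libraries. According to the study's methods and the labels, the authors depleted ribosomal RNA, made stranded libraries, aligned reads to mm10 with STAR, counted reads per transcript with eXpress and normalized with DESeq2. The authors deposited variance-stabilized values on a log2 scale for 10370 transcripts. The annotation release and strand setting are not given in the sources used here. The scale compresses differences, so that a doubling from 200 normalized counts moves it by 0.27 and a doubling from 1000 by 0.53.

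The transformation was inverted to give normalized counts, size factors and reads, and 100% of values came out as whole reads within a tolerance of 0.1. Listed transcripts had a mean of at least 107.9 normalized counts, so rarer ones are not analysed here. Of the transcripts, 10241 had a GENCODE M21 entry and 129 had none. One read was worth 0.679 to 2.00 normalized counts. Comparing reads library by library found no pair within sampling noise.

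Each transcript was tested on the deposited log2 values with limma 3.58.1 (R 4.3.3), fitting group alone with a trended eBayes, two-sided, and adjusted by the Benjamini-Hochberg method over all transcripts at the study's threshold of 0.1. A fit on log2(normalized count + 1) gave the 95% intervals. Ratios were tested by exact permutation (numpy 2.4.6). The steps were tested on simulated data. The labels do not state that same-numbered libraries are paired, and replicate numbers were not used to pair them in the main tests. All member transcripts are reported, and from the other lists each transcript at an unadjusted p under 0.05 and the most abundant gene, with the 2 genes of most similar pattern for each member. Some genes that this rule names are not reported here. The members and lists were chosen with earlier results of these data known. Alternatives covered normalization, pseudocount, covariates, filters and left-out libraries, and the restriction to deeper libraries was chosen after seeing the data.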

Additional observations from a re-analysis of the deposited data

How the results depend on the processing

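No subunit transcript reached an unadjusted p under 0.05 in any of the 27 alternatives run, 15 of which left out a library each. The lowest was 0.0530, for Gabra5 without HF-HI replicate 5. Of 214 refits of single subunit transcripts, 207 kept their direction and 7 turned it, all of them near 0. With the log2 size factor as a covariate the VSD difference was 0.0030 for Gabrb2-201 and -0.0105 for Gabrd. Leaving out each library gave -0.0194 to 0.0017 for Gabra3 and -0.0062 to 0.0128 for Gabrd.

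Over all transcripts, the count at an unadjusted p under 0.05 was 533 with the log2 size factor as a covariate, against 916, and 748 to 987 with a library left out. The count past an adjusted p of 0.1 was 0, and 0 to 1 with a library left out: Rtn3-204 without Sham replicate 5, Nrxn3-201 without HF-HI replicate 2 and A330023F24Rik-202 without HF-HI replicate 5. It was 2 over libraries with a size factor of at least 0.8, Numbl-201 and Nrxn3-201. These names were chosen after their values were seen, and none is a subunit.

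The difference in the Gabra5 to Gabra2 ratio was 0.13 to 0.21 with a library left out, and 0.12 over libraries with a size factor of at least 0.8 (exact permutation p = 0.0808). With a library left out, the unadjusted p was above 0.05 in 10 of the 15 cases (any of Sham replicates 2 to 7 and HF-HI replicates 2, 3, 4 and 8). The cause was not tested. Same-numbered libraries correlated at -0.138 to 0.0905 after removing group means, and 1 of 7 correlated best with its own number, so the numbers were not used to pair them. A replicate block over the 7 shared numbers leaves out HF-HI replicate 8. With it the Gabra5 to Gabra2 difference was 0.16 (exact sign-flip test of the same-number differences, p = 0.0938). In limma with that block, 890 transcripts were at an unadjusted p under 0.05. Depth limits the least abundant transcripts most, with 53 reads for Gabrb2-204 and 77 for Gabra2-201 in the shallowest cases.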
